A study of Equus caballus with 11 samples.

Results

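Reduced representation bisulfite sequencing (RRBS) of horse heart, lung and liver held 753 windows of 1000 bp that were rich in CpGs and low in methylation in every library. A CpG is a cytosine followed by a guanine, the main place where mammalian DNA is methylated. A window entered the set when 30 or more distinct CpGs were listed in it on chromosomes 1 to 31, when it held 50 or more reads in each of the 11 libraries, and when its methylation level was under 20% in every library. The level of a window is the number of methylated reads summed over its CpGs, divided by all reads summed over them, in percent. The windows were therefore selected on their own levels, so their low methylation is a property of the choice and not a result. Of 444129 windows with any listed CpG, 15390 held 30 or more CpGs, 1919 of these had 50 or more reads in every library, and 753 of the 1919 (39.2%) stayed under 20% throughout. A further 441 of the 1919 were at 80% or more in every library, and the other 725 lay between or varied.

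The samples came from 4 healthy cold-blooded stallions aged 1 to 2 years. Heart (left ventricle) and lung (caudal part of the right lung) were each represented by 4 libraries, and liver (right lobe) by 3, from horses 1, 2 and 4, since the liver of horse 3 was not analysed here. No animal received a treatment, and each tissue piece was a mixture of cell types, so a level of a few percent can come from a few cells or from a low level in many cells, and these cannot be told apart. Summed coverage of listed CpGs ranged from 3255257 reads in the liver of horse 2 to 25109840 reads in the liver of horse 1. The liver of horse 2 stood apart by this depth, and without it 1450 of 3386 sufficiently read CpG-dense windows met the same rule. The files hold no marker of cell identity, so the labelled tissues could not be checked against one.

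Stretches of DNA dense in CpGs are known as CpG islands. Many of them lie at gene promoters, where they usually stay unmethylated in normal adult tissues while most CpGs elsewhere in a mammalian genome are methylated. RRBS cuts DNA with an enzyme that recognises a CpG-containing site and so reads such stretches preferentially. The fixed windows used here were not drawn around islands or genes, and no gene was assigned to them.

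The CpGs of the unmethylated windows lay closer together than those of the methylated ones, a property that the level did not define. The 753 windows held 34850 listed CpGs, from 30 to 145 in a window with a median of 43, against a median of 48 in the 441 methylated windows. Despite the similar number per window, the median distance from a CpG to the next listed CpG in its window was 7 bp in the unmethylated windows, 13 bp in the methylated windows and 11 bp in the other CpG-dense windows. Neighbours 2 bp apart, that is 2 CpGs directly following each other, made up 11.8% of all such distances in the unmethylated windows, 3.44% in the methylated windows and 6.40% in the others. Only 11 of the 753 unmethylated windows (1.46%) had no such pair, compared with 229 of the 441 methylated windows (51.9%). The same share over all windows of the series was 5.53%. These distances depend on which CpGs were read, and the comparison is a description over windows without a test.

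The share of unmethylated windows did not rise steadily with the number of listed CpGs. Of the CpG-dense windows with 30 to 39 CpGs, 291 of 754 (38.6%) were unmethylated. The share was 220 of 517 (42.6%) at 40 to 49 CpGs, 123 of 398 (30.9%) at 50 to 59 CpGs, where 140 were methylated in every library, and 97 of 209 (46.4%) at 60 to 79 CpGs. Among the 41 windows with 80 or more CpGs, 22 (53.7%) were unmethylated and 7 were methylated in every library.

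The unmethylated windows were also placed differently along the chromosomes. Within 5 Mb of the first listed CpG of a chromosome lay 69 of the 753 unmethylated windows (9.16%), 212 of the 441 methylated windows (48.1%) and 230 of the 725 others (31.7%). Within 5 Mb of the last listed CpG the shares were 9.96%, 7.26% and 10.8%, so the difference in placement was at the low-numbered end of the coordinates. The share of CpG-dense windows that were unmethylated ran from 19 of 151 (12.6%) on chromosome 8, where 75 were methylated in every library, to 10 of 13 (76.9%) on chromosome 31. Chromosome 1 carried the most unmethylated windows, with 67 of 193. Most of the windows stood alone on the fixed grid. There were 689 single windows and 32 runs of 2 neighbouring windows, and no longer run.

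The 3 runs with the most CpGs show how far such stretches extended. The run at chr19:4947001-4949000 (EquCab3.0, the horse assembly of the files) held 236 CpGs, and its level over summed reads was 1.16% ± 0.264 (SD, n = 4) in heart, 1.43% ± 0.448 (n = 4) in lung and 0.907% ± 0.333 (n = 3) in liver. Its first window, chr19:4947001-4948000, had the most CpGs of all, 145, and ranged from 0.499% to 1.35% over the 11 libraries with 1382 to 6212 reads in each. The run at chr5:32580001-32582000 held 216 CpGs and was more variable, between 1.32% and 7.54%. The run at chr11:61121001-61123000 held 188 CpGs and lay between 2.10% and 6.65%.

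Within the limit set by the rule, most windows were far below it. The median window level was 0.716%, 0.847%, 0.800% and 0.699% in the hearts of horses 1 to 4. In the lungs of the same horses it was 1.18%, 1.03%, 1.48% and 0.957%. In the livers of horses 1, 2 and 4 it was 1.17%, 0.833% and 0.862%. In contrast, the median level of the 441 methylated windows was 88.4% to 91.1% across the libraries. Of the 753 windows, 458 (60.8%) were under 5% in every library and 269 were under 2% in every library. Another 139 reached 10% or more in some library, but a single window stayed at 10% or more in all of them.

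**Figure D1:**
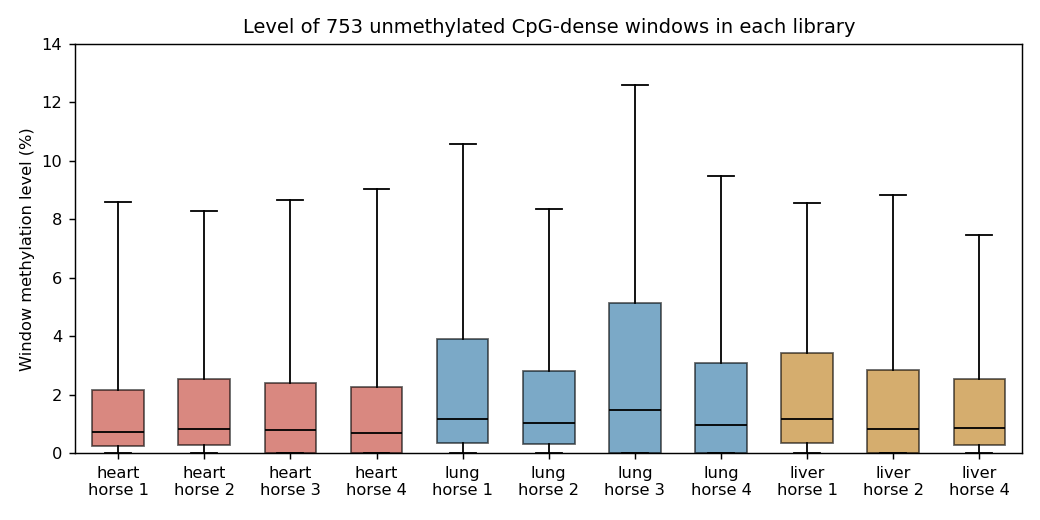
Methylation level (%, vertical axis) of the 753 unmethylated CpG-dense windows in each of the 11 libraries (horizontal axis). Boxes span the middle 50 percent of the windows with the median as a line, and whiskers run from the 5th to the 95th percentile; the lung of horse 3 has the highest median, 1.48%.

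How often a window showed no methylated read at all followed the number of reads. The median window had 78 reads in the liver of horse 2 and 410 in the liver of horse 1, and windows with no methylated read numbered 343 and 92 in these libraries. A count of 0 allows a level of up to 4.17% at the 72 reads that the median such window had in the liver of horse 2, and of up to 0.897% at 334.5 reads in the liver of horse 1. These limits cover counting error only, and a read that spans several CpGs is counted once at each, so the true limits are wider. No window lacked a methylated read in all 11 libraries together.

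The windows at the extremes of the range make the scale concrete. The lowest was chr1:128144001-128145000 with 30 CpGs, which had no methylated read in 10 libraries and 0.351% in the heart of horse 1. Next came chr9:48201001-48202000 with 68 CpGs, at 0.391% in the liver of horse 4, 0.327% in the lung of horse 1 and 0 elsewhere. The third, chr5:92329001-92330000 with 41 CpGs, reached at most 0.400%, in the lung of horse 1. Of the 4 windows with the most CpGs, chr19:4947001-4948000 and chr17:18944001-18945000 (121 CpGs, 0 to 0.726%) were low in every library. The other two were less so. Levels in chr5:32581001-32582000, with 115 CpGs, ran from 1.86% to 11.3%. In chr11:61122001-61123000, with 111 CpGs, hearts were at 0 to 0.678%, lungs at 2.00% to 6.70% and livers at 1.06% to 2.14%, with every lung and liver above every heart. Lung was 3.12 points above heart there (adjusted p = 0.00684, limma, from the window test applied to all windows).

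At the other end, the members just inside the limit peaked at 19.7% in chr3:4112001-4113000, at 19.6% in chr9:46594001-46595000 and at 19.6% in chr2:19758001-19759000. The nearest windows outside it, chr3:16608001-16609000, chr14:39770001-39771000 and chr1:14811001-14812000, peaked at 20%, 20% and 20.1%. The last of these was at 20.1% in the lung of horse 3 and between 1.92% and 10.4% in the other 10 libraries.

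The low residual level was uneven between tissues. Every lung library had a higher median window level than every heart library, with a mean of 1.16% ± 0.233 (SD, n = 4) in lung against 0.766% ± 0.0700 (n = 4) in heart, a difference of 0.396 points. An exact two-sided permutation test over libraries gave p = 0.0286, the smallest that 4 against 4 libraries can give, and 0.0857 after Benjamini-Hochberg adjustment over the 3 tissue comparisons, which is above 0.05. The lung was higher in 4 of 4 horses, and exact sign flips within the paired horses gave p = 0.125, the smallest that 4 horses allow. Liver, at 0.954% ± 0.184 (n = 3), lay between. The exact permutation test gave an adjusted p of 0.286 against lung and 0.171 against heart. Lung was above liver in 3 of 3 paired horses (exact sign flips, p = 0.25, the smallest that 3 horses allow). Heart was above liver in 1 of 3 (exact sign flips, p = 0.5). With 4 against 3 libraries the permutation test cannot go below 0.0571. No adjusted p over the 3 comparisons could therefore pass 0.05.

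Summing reads over the 753 windows, in place of the median, gave the same order of heart and lung. The hearts lay at 2.05%, 2.13%, 2.10% and 2.12% for horses 1 to 4, within 0.1 points of each other. The lungs were higher and more scattered, at 3.04%, 2.23%, 4.01% and 2.57%. The livers of horses 1, 2 and 4 were at 2.69%, 2.23% and 2.07%. The difference of 0.864 points between lung and heart had the same adjusted p, 0.0857, in the exact permutation test.

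CpGs of mitochondrial DNA, which is thought to carry little or no methylation, were read in the same libraries and differed between tissues in the same direction. Their level was 0.336% to 0.373% in heart, 0.613% to 1.69% in lung and 0.904% to 1.20% in liver, while summed mitochondrial coverage was 346982 to 659656 reads in heart and 30240 to 77521 in lung. Every lung library was again above every heart library. Among the lungs the order was not the same, however, since horse 3 had the highest level in the windows and the lowest on mitochondrial DNA. The part of incomplete conversion or of mitochondrial depth in the difference between tissues was not tested.

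**Figure D2:**
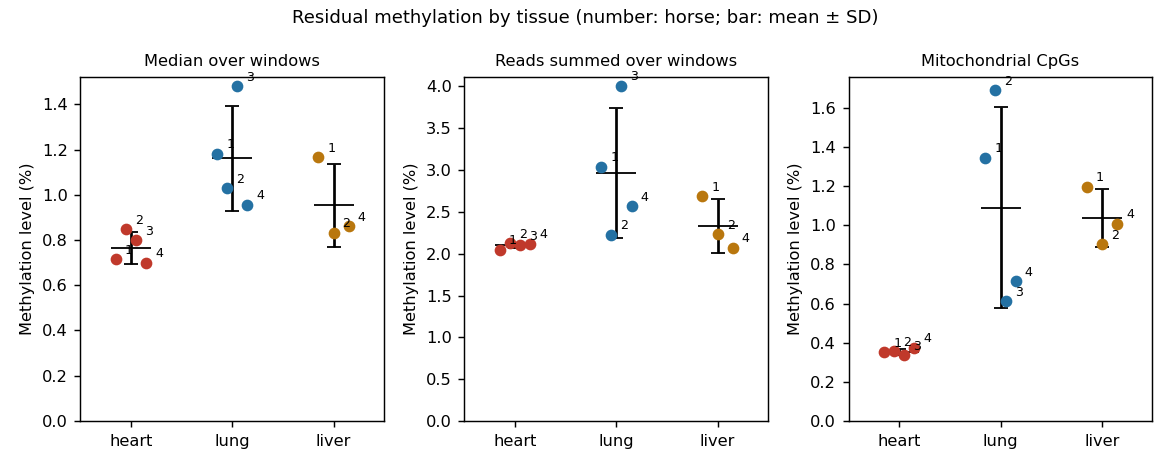
Methylation level (%, vertical axes starting at 0) by tissue, as the median over the 753 windows (left), over the summed reads of the windows (middle) and over mitochondrial CpGs (right). Points are libraries with the horse number, bars are mean ± SD; in every panel all 4 lungs lie above all 4 hearts.

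The higher level in lung was spread over many windows and was larger where the windows were less empty. The mean level of lung exceeded that of heart in 497 of 753 windows (66.0%) with a median difference of 0.278 points, and in 58.7% of all 8637 windows tested with a median difference of 0.553 points. On summed reads, lung exceeded heart on 28 of the 31 chromosomes. The chromosomes were read in the same libraries, so they are not independent of each other. In the 231 windows whose mean over libraries was under 0.5%, the level was 0.308% ± 0.0191 (SD, n = 4) in heart and 0.333% ± 0.0313 (n = 4) in lung, and the groups overlapped. In the 122 windows with a mean of 1% to 2%, it was 1.05% ± 0.0656 in heart and 1.95% ± 0.668 in lung, with every lung above every heart. In the 97 windows with a mean of 5% or more, it was 7.03% ± 0.236 in heart and 9.20% ± 1.80 in lung. The windows were grouped here by the same levels, so these values are a description.

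Lung also exceeded liver in 479 windows (63.6%, median difference 0.195 points), whereas over all windows tested the share was 50.6%. Heart was above liver in 342 windows (45.4%) and below it in 407, and it was above liver in 42.9% of all windows tested.

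Levels inside the windows also depended on how crowded the CpGs were. The 698 CpGs with at most 1 other listed CpG within 50 bp had a level of 5.22% ± 0.627 (SD, n = 4) in heart, 5.56% ± 0.642 (n = 4) in lung and 4.24% ± 1.53 (n = 3) in liver. The 9374 CpGs with 8 to 10 others within 50 bp were at 1.29% ± 0.0840 in heart, 2.37% ± 0.769 in lung and 1.78% ± 0.314 in liver. The fall was not monotonic. At 11 or more others the level was 1.5% ± 0.274 in heart, 3.01% ± 1.12 in lung and 1.96% ± 0.389 in liver.

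Differences in level among the windows were shared between libraries, and more so within a tissue. Spearman's rho between libraries over the 753 windows averaged 0.662 over the 15 pairs of the same tissue and 0.611 over the 40 pairs of different tissues. Exchanging the tissue labels within horses in all 432 ways gave an exact one-sided permutation p of 0.00463 for the difference of 0.0517. This is the smallest p that these exchanges can give, since swapping heart and lung in every horse leaves the groups unchanged. The correlations were 0.659 to 0.752 within lung, 0.588 to 0.693 within heart and 0.550 to 0.700 within liver. Pairs of different tissues overlapped these ranges, from 0.487 between heart and liver to 0.756 between liver and lung. The values of all libraries share windows and depend on depth. When the reads of each window were thinned to its shallowest library, the averages were 0.560 and 0.516 and the exact permutation p was 0.00463. Without the liver of horse 2 it was 0.0139, the smallest that the remaining 144 exchanges can give.

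To find which windows differed between tissues, the methylated and unmethylated reads of each window were compared by a moderated quasi-likelihood test of a logistic model, with Benjamini-Hochberg adjustment over all 8637 windows of the series that had 3 or more CpGs and 50 or more reads in every library. The limit of 20% keeps large differences out of the set, so the share of windows called cannot be read against that of all windows, which is printed for orientation. Between lung and heart, 38 of 753 windows (5.05%) were called at an adjusted p below 0.05, and 13.2% of all windows were. Of the 38, 30 were higher in lung and 8 were higher in heart, and of all called windows of the series 60.5% were higher in lung. With a difference of 5 points or more required as well, 14 windows remained (12.4% over all windows), 10 of them higher in lung. With the horses as a paired term (replicate block), 59 of the 753 windows were called, 48 of them higher in lung. The 38 calls became 16 without the heart of horse 1, 22 without that of horse 2, 25 without that of horse 3, 23 without that of horse 4, 21 without the lung of horse 1 and 23 without that of horse 3. Shares over all windows are not given for the replicate block or with libraries left out, so these counts have no background.

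Between lung and liver, 11 windows were called (1.46%, with 10.4% over all windows), 4 higher and 7 lower in lung (45.3% of all called windows were higher in lung). Of these, 9 differed by 5 points or more (10.2% over all windows). The replicate block raised the number to 27, with 17 higher in lung. Leaving out the liver of horse 1 left 3 calls, leaving out that of horse 2 left 7, and leaving out the lung of horse 2 gave 17. Between heart and liver, 43 windows were called (5.71%, with 17.8% over all windows), 15 higher and 28 lower in heart (37.3% of all called windows were higher in heart), and 23 differed by 5 points or more (17.0% over all windows). Without the liver of horse 1 there were 11, and without the heart of horse 2 there were 28. Here too, counts with the replicate block or with libraries left out have no share over all windows beside them. Of the called windows, 37 of 38, 10 of 11 and 40 of 43 were also called by edgeR. That test called 54, 14 and 60 of the 753 windows, and its shares over all windows are not given here. Across all 753 windows the median size of the difference was 0.542 points between lung and heart, 0.452 between lung and liver and 0.547 between heart and liver.

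The windows that differed most between lung and heart in favour of lung had low hearts and graded lungs. In chr2:108414001-108415000, with 103 CpGs, the hearts of horses 1 to 4 were at 1.31%, 3.39%, 1.45% and 3.44%. The lungs were at 11.6%, 6.06%, 19.6% and 7.82%, all above the hearts, and the livers of horses 1, 2 and 4 were at 9.51%, 4.27% and 6.80%. On summed reads lung was 8.45 points above heart (adjusted p = 0.00863, moderated quasi-likelihood test with limma).

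A similar order held in the next pair of windows. In chr1:175065001-175066000, with 36 CpGs, hearts lay between 3.85% and 4.78% and lungs at 14.4%, 13.6%, 15.8% and 8.56%, a difference of 8.40 points (adjusted p = 0.00559, limma). Livers were between, at 11.2%, 8.33% and 6.57%. In chr13:23390001-23391000, with 69 CpGs, hearts were at 1.84% to 3.66% and lungs at 11.4%, 8.0%, 16.5% and 8.63%, a difference of 8.19 points (adjusted p = 0.00182, limma). In all 3 windows the heart group overlapped neither lung nor liver, and the lung of horse 3 was the highest library.

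The opposite order, with heart above lung, was seen in windows where liver was also below heart. It was seen as well in a window on chromosome 28, given further below, where liver was above lung. In chr17:20972001-20973000, with 42 CpGs, the hearts of horses 1 to 4 were at 15.8%, 8.91%, 6.06% and 7.09%. The lungs were at 4.58%, 1.33%, 1.11% and 2.16%, and the livers of horses 1, 2 and 4 at 0.881%, 0 and 0.505%. No lung or liver reached the lowest heart, and heart was 8.87 points above lung (adjusted p = 0.0150, limma) and 10.66 points above liver (adjusted p = 0.00185, limma). The call against lung was lost without the heart of horse 1, where the difference became 5.24 points (adjusted p = 0.0718, limma), and without the lung of horse 2 (adjusted p = 0.0578, limma).

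In chr5:93880001-93881000, with 49 CpGs and the largest spread between libraries of all the windows, hearts lay at 14.2%, 11.8%, 15.1% and 19.2%, lungs at 9.38%, 3.56%, 9.60% and 1.55% and livers at 4.49%, 0 and 3.04%. Hearts were again above all other libraries, by 8.96 points over lung (adjusted p = 0.0255, limma) and 10.53 points over liver (adjusted p = 0.00418, limma). The call against lung was lost without the heart of horse 1 (adjusted p = 0.0589, limma), the heart of horse 4 (adjusted p = 0.0522, limma) or the lung of horse 2 (adjusted p = 0.153, limma), and at CpGs read in all libraries (3.36 points, adjusted p = 0.156, limma).

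The window chr3:4112001-4113000, with 54 CpGs, had widely spread hearts. Hearts of horses 1, 2 and 3 were at 19.7%, 13.1% and 12.1% and that of horse 4 at 3.33%, within the range of the other tissues. Lungs were at 10.5%, 8.23%, 4.46% and 5.71% and livers at 3.24%, 2.67% and 2.09%. Heart was 10.14 points above liver (adjusted p = 0.0130, limma) and lung 5.44 points above liver (adjusted p = 0.0405, limma). The call between heart and liver was lost without the liver of horse 1 (10.75 points, adjusted p = 0.0889, limma) and at CpGs read in all libraries (1.60 points, adjusted p = 0.569, limma). That between lung and liver was lost without any one of the 3 livers or of the lungs of horses 1, 2 and 4, with adjusted p from 0.0548 to 0.149 (limma), and at CpGs read in all libraries (adjusted p = 0.209, limma).

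Liver was set apart from both other tissues in several windows. In chr1:95001-96000, with 32 CpGs, hearts and lungs lay together between 0.345% and 0.924%, while the livers of horses 1, 2 and 4 were at 11.9%, 10.2% and 4.88%. Liver was 7.75 points above lung (adjusted p = 0.000762, limma) and 7.93 points above heart (adjusted p = 0.000354, limma), with 334 to 1347 reads per library. In chr3:116692001-116693000, with 58 CpGs, livers were at 14.3%, 8.60% and 12.8%, hearts at 2.63% to 4.13% and lungs at 0 to 3.38%. The difference from lung was 11.78 points (adjusted p = 0.000425, limma) and that from heart 9.09 points (adjusted p = 0.000704, limma). In chr4:108008001-108009000, with 37 CpGs, livers were at 13.2%, 13.2% and 9.40% and hearts at 0.965% to 4.26%, a difference of 9.27 points (adjusted p = 0.00153, limma).

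Liver was below both other tissues in further windows, among them chr3:4112001-4113000 and chr17:20972001-20973000 above, where no liver reached the lowest heart or lung. In chr17:20972001-20973000 the difference of 1.79 points between lung and liver was not called (adjusted p = 0.248, limma). In chr1:172934001-172935000, with 43 CpGs, livers were at 1.11%, 0 and 0.671%, hearts at 5.56% to 9.43% and lungs at 4.88% to 8.21%. Lung was 6.21 points above liver (adjusted p = 0.00914, limma), which became 6.62 points without the liver of horse 1 (adjusted p = 0.0605, limma). In chr11:51358001-51359000, with 35 CpGs, livers were at 4.34%, 1.40% and 5.29% and lungs at 7.81% to 10.98%, a difference of 4.60 points (adjusted p = 0.0285, limma). Hearts were at 7.69% to 15.3%, 8.31 points above liver (adjusted p = 0.00781, limma). Its call between lung and liver was lost without the liver of horse 1 or 2 or the lung of horse 1, 3 or 4, with adjusted p from 0.0522 to 0.168 (limma), and among windows with 100 or more reads (adjusted p = 0.0563, limma).

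Lung was below both other tissues in chr28:42364001-42365000, with 33 CpGs. Lungs were close together at 2.66%, 1.76%, 2.38% and 1.80%. Hearts were at 10.5%, 9.77%, 4.51% and 18.6% and livers at 17.6%, 8.57% and 12.7%, all above the lungs. The difference was 7.92 points to heart (adjusted p = 0.00510, limma) and 12.51 points to liver (adjusted p = 0.000732, limma). A window could also spread widely without a call. In chr20:16734001-16735000, with 45 CpGs and 55 to 328 reads, hearts ran from 0 to 8.16%, lungs from 5.18% to 16.4% and livers from 3.00% to 14.9%. The means were 3.16% in heart, 11.4% in lung and 8.41% in liver. No comparison was called there, which does not show that the level was unrelated to tissue.

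**Figure D3:**
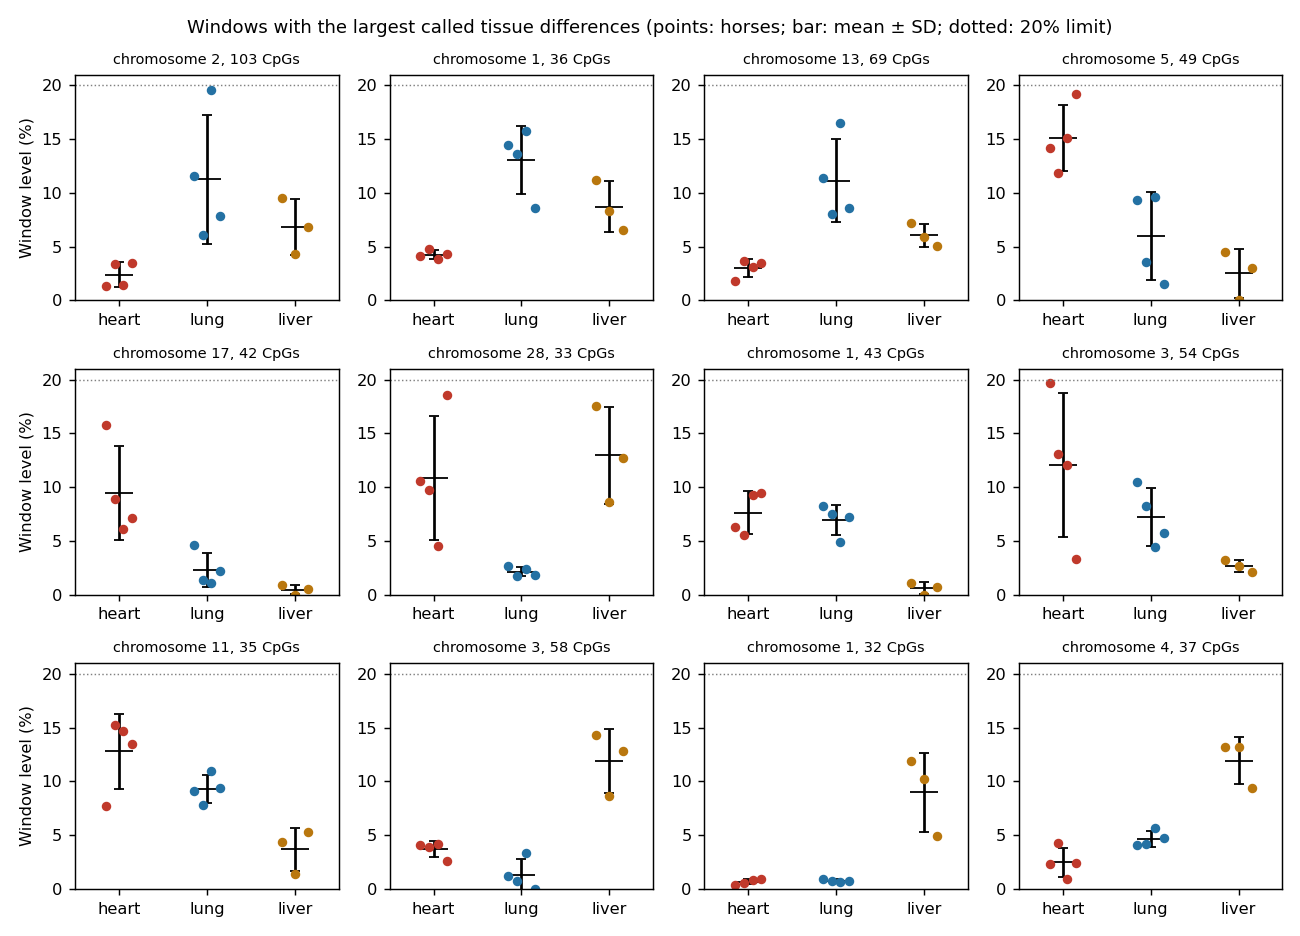
Level (%, vertical axis from 0, dotted line at the 20% limit) of 12 windows, those with the 3 largest called differences in each comparison and direction, by tissue. Points are libraries of single horses and bars are mean ± SD; panels are named by chromosome and number of CpGs, and the window on chromosome 28 has all 4 lungs under 2.7% and all hearts and livers above 4.5%.

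Single CpGs inside the windows seldom passed the thresholds used by the study for differentially methylated sites, an adjusted p below 0.01 and a difference of 25 points or more. Between lung and heart none of 3668 CpGs with 10 or more reads in every library of both tissues was called by the moderated quasi-likelihood test (limma), while 365 had an unadjusted p under 0.05. The share with such an unadjusted p over all CpGs is not given, so the 365 have no background. Over all CpGs of the series 2.71% were called. Between lung and liver 2 of 2739 CpGs were called (0.0730%, with 3.82% over all CpGs), and between heart and liver 3 of 2791 (0.107%, with 5.84% over all CpGs). As with the windows, the 20% limit restricts these counts.

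The 5 calls fell on 3 CpGs. The CpG at chr1:172934755 was at 36.7% ± 4.77 (SD, n = 4) in heart, 33.3% ± 14.8 (n = 4) in lung and 1.01% ± 1.75 (n = 3) in liver, within the window in which the liver was the lowest tissue. At chr13:36287397 the order was turned, with 11.7% ± 6.13 in heart, 8.37% ± 3.54 in lung and 43.0% ± 12.7 in liver. The CpG at chr2:35223333 was at 31.7% ± 15.5 in heart, 17.3% ± 7.49 in lung and 4.77% ± 3.39 in liver, with a call between heart and liver. No call remained for any of the 3 CpGs when the horses entered as a replicate block. These CpGs were singled out after their values were seen.

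A low window could still contain methylated CpGs. Of 2563 CpGs with 10 or more reads in every library, which lay in 460 of the windows, 2334 (91.1%) were under 20% in every library and 321 (12.5%) had no methylated read in any. At the other extreme, 9 CpGs in 4 windows were at 20% or more in every library. The 3 with the highest level in their lowest library were on chromosomes 4 and 2. The CpG at chr4:40916372 was at 94.0% ± 3.04 (SD, n = 4) in heart, 85.8% ± 7.31 (n = 4) in lung and 89.0% ± 7.01 (n = 3) in liver, with 11 to 37 reads per library. At chr4:40916334 the levels were 81.7% ± 10.4, 80.3% ± 6.67 and 71.8% ± 15.1. At chr2:19758959 they were 70.0% ± 5.29, 73.8% ± 14.01 and 69.6% ± 8.64.

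In both windows the methylated CpGs lay in 1 stretch. In chr4:40916001-40917000 they were 4 CpGs within 45 bp, from position 40916328 to 40916372. They held 11.3% of the reads and 72.5% of the methylated reads of the window, and the other 65 listed CpGs together were at 0 to 6.82% depending on the library. The nearest other listed CpG was 156 bp away, so the edge of the stretch was not resolved. In chr2:19758001-19759000 the stretch was longer. The last 6 listed CpGs of that window, from 19758871 to 19758968, spanned 98 bp and were at 37.0% to 72.2% over the summed reads of all libraries, although only 3 of them were listed in every library. They held 15.9% of the reads and 74.5% of the methylated reads, and none of the other 31 CpGs was above 14.3%. The nearest of these was 274 bp away. At the CpGs with 10 or more reads in every library the levels of heart, lung and liver overlapped.

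**Figure D4:**
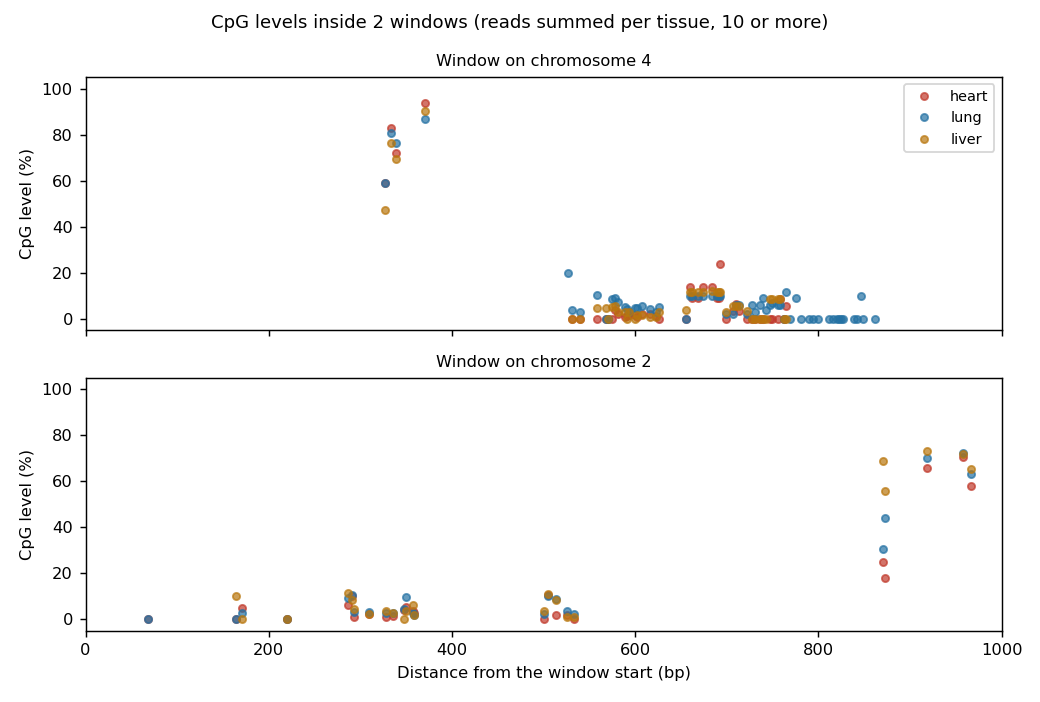
Level of each CpG (%, vertical axis) against its distance from the start of the window (bp) in the 2 windows with the most methylated CpGs, for CpGs with 10 or more summed reads in a tissue. Points are coloured by tissue; in the window on chromosome 4 a group of 4 CpGs between 47% and 94% stands apart from the rest of the window.

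Methylation rose gradually with distance from the windows. The median level of the 296 windows directly next to an unmethylated window, with 10 or more reads in every library and not in the set themselves, was 3.28% to 7.32% across libraries. At a distance of 2 kb (162 windows) it was 7.37% to 14.1%, and at 6 kb (98 windows) 38.0% to 57.3%. The neighbouring windows were 3.54 ± 0.939 points (mean and SD of 11 libraries) above the windows themselves, and higher in 11 of 11 libraries. Only the windows themselves were held under 20%, and neighbours that met the rule were left out. The sign of this difference was therefore largely fixed by the choice. Of the direct neighbours, 189 of 296 (63.9%) were under 20% in every library, having missed the rule through fewer CpGs or reads, and at 6 kb 27 of 98 (27.6%) were.

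The surroundings of the methylated CpG-dense windows were unlike this. Their 242 direct neighbours had a median of 82.2% to 84.7% across libraries, and none of them was under 20% in every library. At 6 kb, 1 of 200 was. In the mean over libraries, liver was the lowest tissue around the unmethylated windows from 1 to 6 kb, for example 8.57% against 12.1% in heart and 12.1% in lung at 2 kb. This order was not tested.

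**Figure D5:**
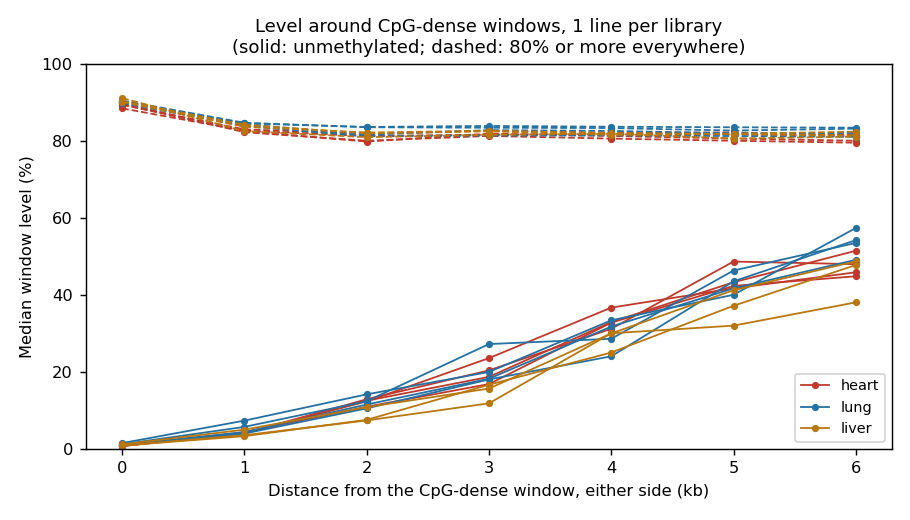
Median methylation level (%, vertical axis) of windows at 0 to 6 kb (horizontal axis) from unmethylated CpG-dense windows (solid lines) and from CpG-dense windows at 80% or more in every library (dashed lines), 1 line for each library coloured by tissue. The solid lines rise from under 1.5% to between 38.0% and 57.3%, and the dashed lines stay near 80% to 91%.

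The windows took a small part of the reads in every tissue. Their share of summed coverage was 1.68% ± 0.183 (SD, n = 4) in heart, 1.73% ± 0.156 (n = 4) in lung and 2.02% ± 0.495 (n = 3) in liver. The exact permutation test gave an adjusted p of 0.743 for lung against heart and 0.600 for both comparisons with liver. With these numbers of libraries no adjusted p could pass 0.05. The liver of horse 2, the shallowest library, was the highest at 2.56%, and the other 10 libraries lay between 1.5% and 1.93%. At the 218903 CpGs that were read in all 11 libraries, of which 5763 were in the windows, the liver of horse 2, at 3.08%, no longer stood apart. There the share was 2.87% to 2.98% in heart, 2.98% to 3.18% in lung and 3.07% to 3.27% in liver. Heart did not overlap liver. The highest heart (2.982%) was only just below the lowest lung (2.983%). The exact permutation test gave p = 0.0286 for lung against heart and p = 0.0571 for heart against liver, the smallest possible values, and an adjusted p of 0.0857 for both.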

How the data were processed

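RRBS libraries of 11 horse tissue samples (Ovation RRBS Methyl-Seq, single-end reads) were processed by the authors. The deposited files list, per CpG position and strand on EquCab3.0, the coverage as read counts (never under 5) and the percent of reads calling C or T. The submitters' processing notes name FastQC and BSMAP, without versions. Depth is summed coverage of listed CpGs, and positions under 5 reads are missing, more often in shallow libraries.

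Methylated reads were recovered as coverage times percent, a product that was whole to within 0.05 points for at least 99.8% of positions, and strands were combined. Window and CpG tests were fitted on all qualifying features by quasi-likelihood F tests with dispersions moderated by limma 3.58.1 in R 4.3.3 (prior from features at 2 to 98%, dispersion not below 1). edgeR 4.0.16 was an alternative on the recovered counts. Single values per library were compared by exact permutation tests (scipy 1.17.1). The window test was tested on simulated data and there made more false calls than its threshold when the spread, rather than the dispersion, was constant across depths.

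The labels give the same animals for the tissues, so horses pair the samples. Deviations from tissue means over the windows correlated between -0.101 and 0.0819 for same-horse pairs of lung and heart (-0.171 to 0.201 for different horses), 0.0536 and 0.219 for lung and liver (-0.114 to 0.0395), and 0.0203 and 0.118 for heart and liver (-0.0894 to 0.0651). The main fits had no horse term. The methods of the study name methylKit and do not state one. The windows, lists and tests were chosen with earlier results of these data known. The test of correlation between libraries, and 5 further alternatives, were added after seeing the data. Windows were named by rule: the 4 with most CpGs, the 3 lowest and highest and the 3 just outside the limit, the 3 longest runs, the 3 largest called differences per comparison and direction, the 3 most methylated CpGs and the 3 of largest spread. Replicates are separate horses.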

Additional observations from a re-analysis of the deposited data

Results flagged for a closer look

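Of 48 groups of 4 libraries examined, 4 had a sample whose gap to its nearest neighbour was too large a part of the range of its group by the 95% limit of Dixon's test. Chance alone marks about 1 in 20 groups. The heart of horse 1 was at 0.351% in chr1:128144001-128145000 while the other hearts were at 0. The lung of horse 1 was at 0.327% in chr9:48201001-48202000 and at 0.400% in chr5:92329001-92330000 while the other lungs were at 0 in both. These 3 windows were named for their low levels, and where 3 libraries are at 0 any methylated read in the other gives such a gap, so the choice of windows fixed the outcome. In chr3:116692001-116693000 the heart of horse 4, at 2.63%, was below the other hearts at 3.92% to 4.13%.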

How the results depend on the processing

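The number of windows under the rule was 614 with a limit of 10%, 812 with 30%, 1082 with 20 or more CpGs and 735 on a grid moved by 500 bp. It moved to 462 with 40 or more CpGs, 1833 with 20 or more reads, 227 with 100 or more reads and 16 at CpGs read in all libraries, and ranged from 753 to 1450 on leaving out single libraries, the highest without the liver of horse 2. With 100 or more reads, 227 windows could be tested and 11 were called between lung and heart, 3 between lung and liver and 17 between heart and liver, the order kept below. At CpGs read in all libraries 7 were called for lung against liver. The replicate block gave 59, 27 and 38 calls, and edgeR with the replicate block 78, 33 and 73. Leaving out single libraries gave 16 to 44, 3 to 17 and 11 to 41 calls. Without the lung of horse 2 the first 2 counts rose, to 44 and 17. The causes were not tested. All counts of calls in this paragraph are within the 753 windows. Shares over all windows or CpGs are not given for these settings, so the counts have no background. CpG calls became 2, 6 and 9 with 5 or more reads, 3 for lung against heart at an adjusted p below 0.05, 1 and 1 for the comparisons with liver with 20 or more reads, and 0 and 0 there with the replicate block.

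The residual difference between lung and heart was positive in every alternative run, between 0.290 and 0.465 points on leaving out single libraries. That between lung and liver was 0.102 to 0.315 points and that between heart and liver -0.248 to -0.0819. Heart against liver turned to 0.0411 points on the forward strand and was -0.123 points on the reverse strand. The median of the liver of horse 2 was 0 on both strands, and that of the heart of horse 4 was 0 on the reverse strand. The share of reads for lung against heart was -0.00573 to 0.138 points without single libraries, and turned without the lung of horse 3 (-0.00322) or the heart of horse 1 (-0.00573). It was -0.514 to -0.0266 points for lung against liver, and -0.567 to -0.0791 points for heart against liver, nearest to 0 without the liver of horse 2. The flank difference became 6.26 points with 50 or more reads in the neighbours and 23.9 points at 2 to 5 kb. Of the alternatives for single named windows 188 kept and 22 lost the call, and none changed direction. The match of windows to promoters was not run, since no genome or annotation of this build was used here. Depth limits the liver of horse 2 most, where 1 read is over 1 point in most windows.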
